A study of Mus musculus with 15 samples.

Results

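The hair genes described here were 2 hair follicle keratins (Krt25 and Krt27), 5 keratin-associated proteins (Krtap1-5, Krtap4-2, Krtap4-7, Krtap6-1 and Krtap9-3) and the proline-rich protein gene Prr9. They were found by the RefSeq accession that the array files give for a probe, which yielded 8 probes, 1 for each gene, of 33012 gene probes, and they are 8 of the 311 genes that could be named at all. In the files the probes carry the RefSeq identifiers NM_133730.1 (Krt25), NM_010666.1 (Krt27), NM_027157.1 (Krtap1-5), NM_026807.1 (Krtap4-2), NM_029613.1 (Krtap4-7), NM_010672.2 (Krtap6-1), NM_029351.1 (Krtap9-3) and NM_175424.2 (Prr9). The genes were chosen on their log2 signals and detection on these same arrays, so their levels are a description and no test of them is read as evidence. All 8 probes passed the filter on dim probes, which asks for a signal above background on 50% of the arrays of at least 1 age. For 5 of the genes it was passed through week 10 alone, the exceptions being Krt25, Krtap1-5 and Krtap9-3. The keratin-associated proteins are a family with closely similar members, so signal from a related gene cannot be told apart from that of the gene named.

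Mammary whole mounts of BALB-neuT mice gave total RNA for single-colour AB1700 arrays at 10 weeks (5 arrays), 15 weeks (2), 19 weeks (4) and 22 weeks of age (4), and the series design counts 1 animal for each array. Every animal at every age was BALB-neuT, a BALB/c line with an activated rat HER-2/neu transgene under the mouse mammary tumour virus promoter, which drives it in mammary epithelium, and no animal without the transgene was analysed here. The design calls the ages progressive stages of mammary carcinogenesis, so age and stage cannot be told apart. Between 46.1% and 53.9% of the probes of an array were above background, meaning a signal of 3 or more times the noise with no serious quality flag, and the number of arrays, above all the 2 at week 15, limits the precision of every value. Levels are log2 signals after quantile normalization between arrays. Scan day is the name used here for the date in the signal column headers, which do not say what the date records. Scan day 1 held week 10 replicates 1 to 4 and replicate 1 of each later age, and scan day 2 held the other 8 arrays.

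Hair follicles lie in the skin and cycle between growth and rest, and the keratins and keratin-associated proteins are made in quantity only while a hair grows. Krt25 and Krt27 are type I keratins of the inner root sheath, the sleeve that guides the growing shaft. Keratin-associated proteins are small proteins, rich in cysteine or in glycine and tyrosine, that cross-link keratin filaments in the shaft itself. Prr9 lies in the epidermal differentiation complex, a cluster of genes for proteins of cornified cells. In RNA of whole tissue, fewer cells of a type and less RNA per cell cannot be told apart.

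In the RefSeq annotation of mouse assembly GRCm38.p6 (C57BL/6J), 6 of the 8 genes lie on chromosome 11, in a stretch of 24 protein-coding genes from Krt25 to Krtap4-7 of which 10 are keratins and 11 keratin-associated proteins. Krtap6-1 lies on chromosome 16 and Prr9 on chromosome 3. The genes thus sit in 3 places, and their promoters share a feature that their choice did not use. Most of them belong to the keratin or the keratin-associated protein family, so their promoters cannot be taken as independent of each other. The shares of all windows given beside them are a description and no test. The letters TATAAA (the core of the promoter element that binds the general factor TBP) were present on either strand in the RefSeq promoter window of 8 of 8 genes, against 13.6% of all 32851 windows of this length (250 bases before to 50 after the start). In 6 of 8 genes they began 25 to 35 bases before the start on the gene's own strand, against 1.75% of all windows, a distance chosen after the matches were seen. The exceptions were Krt27, where they began 15 bases before the start, and Krtap6-1, where they began 69 bases before. Of the other motifs searched on both strands, CTTTGA, the core bound by LEF1 and TCF factors, was found in 2 of 8 genes (Krtap1-5 and Krtap4-2) against 16.0% of windows, and GACGC, a core bound by FOXN1, in 1 of 8 (Krt27) against 27.2%. A match describes these letters only and is no measure of binding. The 100 bases before the start are shown for 5 genes, chosen to cover the 3 chromosomes and the different positions of the match. They read 5′ to 3′ on the gene's strand, with TATAAA in capitals.
Krt25: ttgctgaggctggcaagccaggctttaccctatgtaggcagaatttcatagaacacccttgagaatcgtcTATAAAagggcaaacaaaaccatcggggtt
Krt27: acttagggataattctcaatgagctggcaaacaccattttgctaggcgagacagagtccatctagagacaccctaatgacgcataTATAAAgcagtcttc
Krtap4-2: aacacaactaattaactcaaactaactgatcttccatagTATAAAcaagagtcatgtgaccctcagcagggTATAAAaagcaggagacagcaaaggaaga
Krtap6-1: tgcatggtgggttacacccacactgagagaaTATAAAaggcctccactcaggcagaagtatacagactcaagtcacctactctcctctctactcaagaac
Prr9: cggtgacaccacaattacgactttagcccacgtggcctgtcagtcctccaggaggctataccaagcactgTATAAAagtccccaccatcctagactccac
These windows are chr11:99322952-99323051 for Krt25, chr11:99351119-99351218 for Krt27, chr11:99635085-99635184 for Krtap4-2 and chr3:92123948-92124047 for Prr9, all on the minus strand, and chr16:89031599-89031698 on the plus strand for Krtap6-1. In Krtap4-2 the letters occur at 61 and again at 29 bases before the start.

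All 8 genes were above background on week 10 replicates 1, 2 and 4, and none was on week 10 replicates 3 and 5. The inner root sheath keratin Krt25 had log2 signals of 18.74, 17.62, 8.32, 15.33 and 8.06 on week 10 replicates 1 to 5. Before normalization its signal was 381856.6, 149037.5, 309.6, 37002.2 and 297.4 in the same order, so replicates 1 and 3, of the same age and scan day, lay far apart. The ratio of signal to noise was 75.1, 86.6 and 73.8 on replicates 1, 2 and 4, and it was below 0 on replicates 3 and 5. Krt27, another keratin of the same sheath, had 18.89, 17.75, 7.80, 15.41 and 6.49. Both keratins were thus bright on replicates 1, 2 and 4, called the bright arrays here, and at the floor of the measurement on replicates 3 and 5.

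The keratin-associated proteins repeated this split of the week 10 arrays. Krtap1-5 had log2 signals of 16.80, 15.26, 7.56, 14.22 and 7.43 on replicates 1 to 5. Krtap9-3 had 17.01, 15.26, 9.24, 13.79 and 9.72, and Krtap4-7 had 15.91, 14.70, 7.94, 12.66 and 7.81. In each of these genes replicates 1, 2 and 4 lay above replicates 3 and 5. Krtap4-2 had 14.21, 12.29, 7.91, 10.92 and 8.91, and Krtap6-1, a glycine- and tyrosine-rich type, had 13.97, 12.52, 8.15, 10.96 and 8.71. Prr9, from outside both families, had 17.81, 16.30, 8.31, 13.91 and 8.09 and so followed the same arrays.

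**Figure D1:**
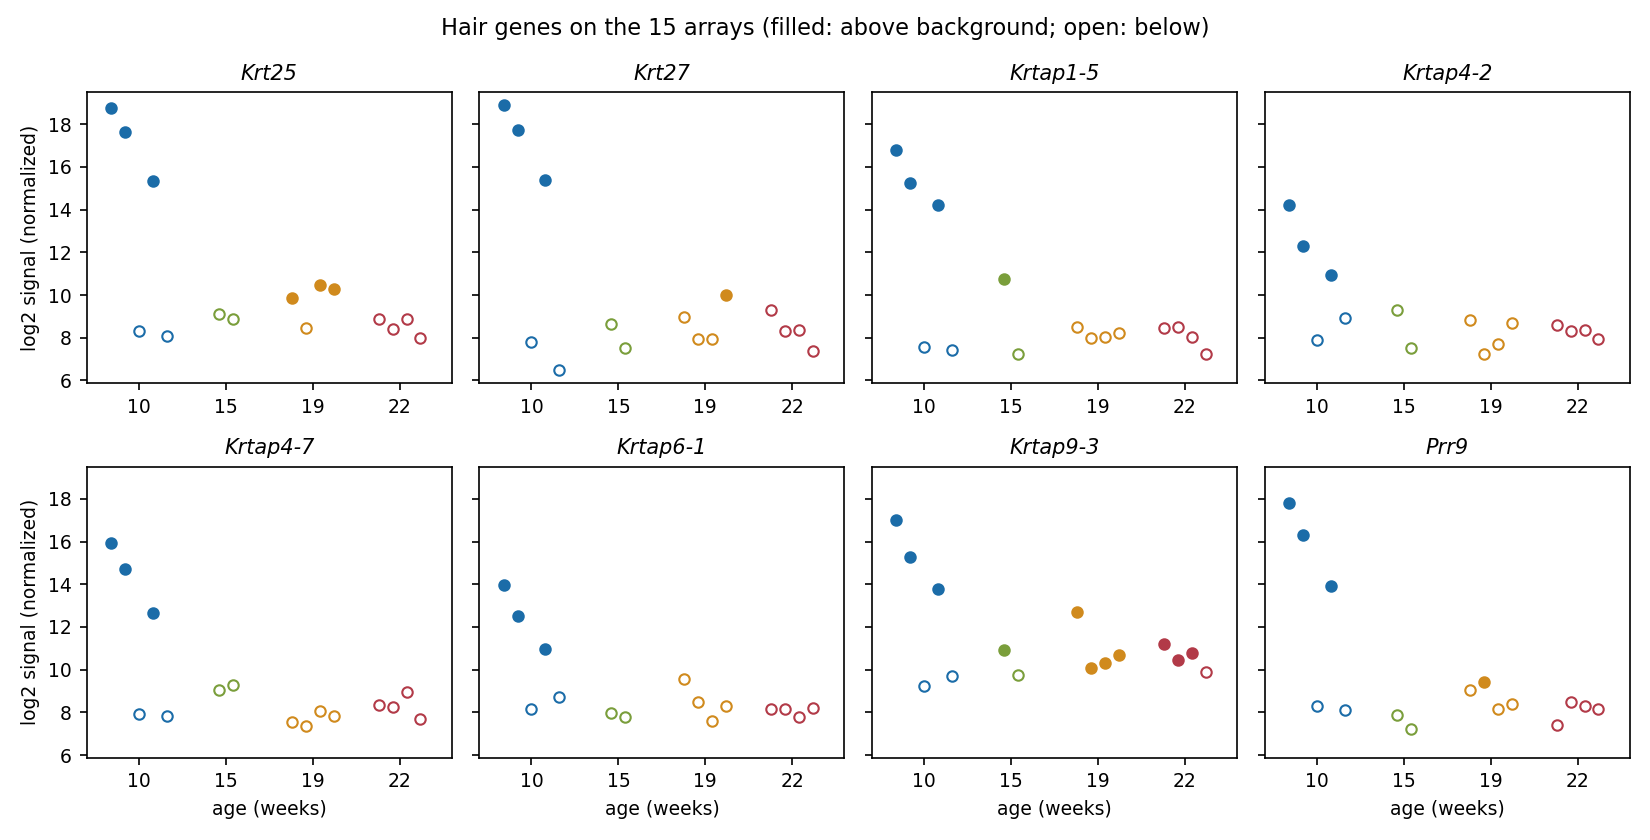
Normalized log2 signal (vertical axis) of each hair gene on the 15 arrays by age in weeks (horizontal axis); each point is 1 array, in replicate order within an age, filled where the probe was above background. In every panel week 10 replicates 1, 2 and 4 lie above all other arrays, and week 10 replicates 3 and 5 lie near the arrays of the later ages.

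The 3 bright arrays also kept their order in every gene, with replicate 1 highest, then replicate 2, then replicate 4. The gap between replicates 1 and 2 ran from 1.12 log2 units in Krt25 to 1.92 in Krtap4-2, and that between replicates 2 and 4 from 1.04 in Krtap1-5 to 2.39 in Prr9. The 2 keratins had nearly equal gaps, 1.12 and 1.14 between replicates 1 and 2, and 2.28 and 2.34 between replicates 2 and 4. Keratin-associated proteins had wider gaps between replicates 1 and 2 (1.21 to 1.92) and narrower ones between replicates 2 and 4 (1.04 to 2.04). From replicate 1 to replicate 4 the whole gap ran from 2.58 in Krtap1-5 to 3.90 in Prr9. These gaps rest on 1 array each and have no error of their own.

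**Figure D2:**
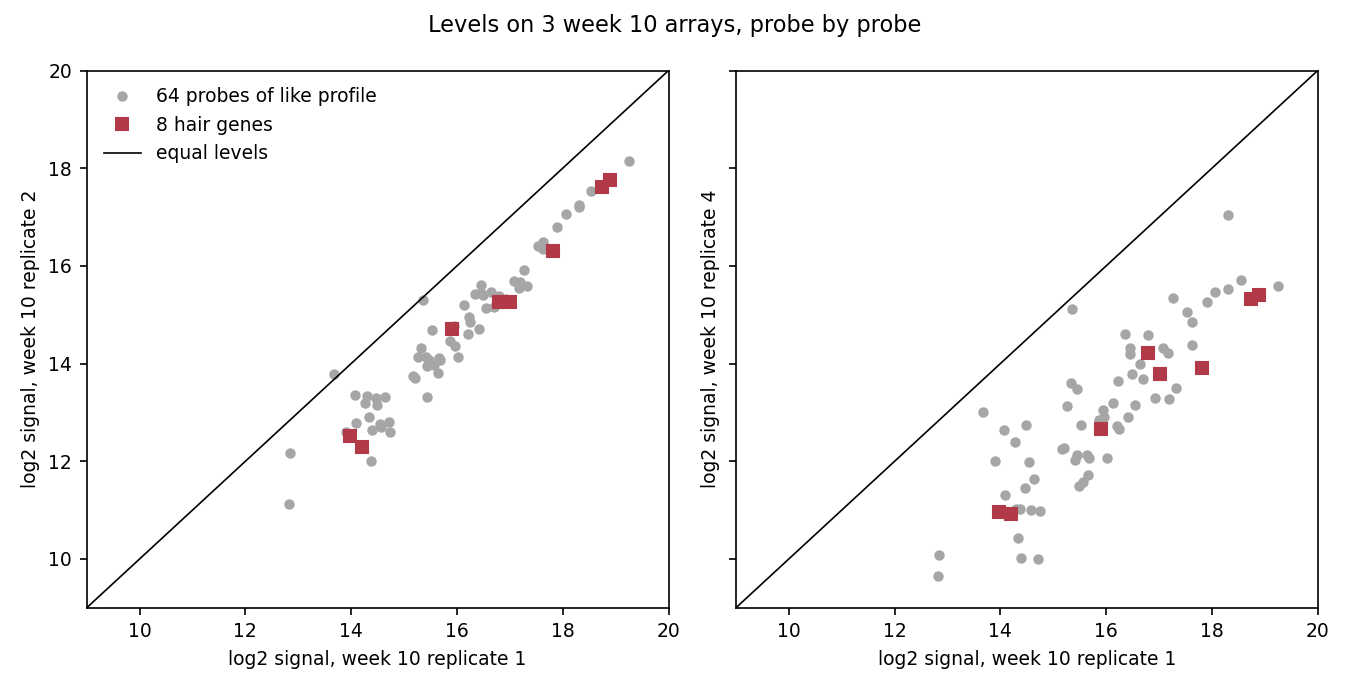
Normalized log2 signal on week 10 replicate 2 (left) and replicate 4 (right) against that on replicate 1, for the 8 hair genes and the 64 other probes whose profile over the arrays is most like theirs. All 8 hair genes lie below the line of equal levels in both panels.

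After week 10 most hair genes were at or near the background, with a low trace on some arrays. Of the values of the 8 genes, 24 of 40 were above background at week 10, 2 of 16 at week 15, 9 of 32 at week 19 and 3 of 32 at week 22. Krtap9-3 supplied 8 of the 14 after week 10, with 10.94 and 9.75 at week 15, 12.71, 10.07, 10.29 and 10.68 at week 19, and 11.19, 10.47, 10.78 and 9.91 at week 22. Its value of 12.71, on week 19 replicate 1, had a signal 12.2 times the noise, and it lay between those of week 10 replicates 3 and 4 of the same gene. On week 22 replicate 1 the signal of Krtap9-3 was 14.7 times the noise.

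Krt25 was the other gene with a trace on several arrays. It had 9.87, 8.48, 10.46 and 10.30 on the 4 week 19 arrays, where replicates 1, 3 and 4 were above background with signals of 4.09, 4.94 and 3.38 times the noise. It was below background on both week 15 arrays (9.13 and 8.86) and on all 4 week 22 arrays (8.88, 8.43, 8.86 and 7.97). Krt27 was above background on week 19 replicate 4 (10.01), Prr9 on week 19 replicate 2 (9.42) and Krtap1-5 on week 15 replicate 1 (10.76). Krtap4-2, Krtap4-7 and Krtap6-1 were above background on no array after week 10. Their values there lay between 7.26 and 9.55 and, being below background, have no order.

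Each later age was set against week 10 in 1 fit over all probes. At week 22 against week 10 all 8 hair genes had a log2 change below 0, from -5.08 ± 1.90 (SE) for Krt25 to -2.42 ± 1.34 for Krtap9-3, with a median of -3.84 beside -0.01 over all 20867 probes tested. Krt25 averaged 8.54 ± 0.43 at week 22 (SD, n = 4) and 13.61 ± 5.10 at week 10 (n = 5), and Prr9 averaged 8.09 ± 0.48 at week 22 and 12.88 ± 4.50 at week 10. By their values the groups overlapped in all 8 genes, but in 7 of them the week 22 values and the lowest week 10 values were all below background and have no order. None of the 8 passed (limma, adjusted p of 0.0723 to 0.257), where 12% of all tested probes passed and 15.3% had groups that did not overlap. At an unadjusted p under 0.05, 7 of the 8 were counted, beside 28.1% of all tested probes, and as the genes were chosen on these arrays nothing is read from either count. Since 7 genes were above background on no week 22 array, their level there was not measured and the size of the change depends on how such values are treated. With each value below background set to a floor, the 95th percentile of such values on its array, the change was -4.36 for Krt25 and -1.51 for Krtap4-2, and the 8 genes ran from -4.43 to -1.51 (median -2.98).

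The other ages were set against the same 5 week 10 arrays. At week 19 the changes ran from -4.54 ± 2.15 for Krt27 to -2.07 ± 1.34 for Krtap9-3 (median -3.95, against -0.02 over all probes), and at week 15 from -5.33 ± 2.09 for Prr9 to -2.44 ± 1.25 for Krtap4-2 (median -3.11, against 0.06). None of the 8 passed in either comparison (limma, adjusted p of 0.0716 to 0.344 at week 19 and 0.379 to 0.542 at week 15), beside 12.5% and 0.0335% of all tested probes. By their values the groups overlapped in all 8 genes at week 19, again mostly among values below background, where 17.1% of all tested probes had groups that did not overlap. At an unadjusted p under 0.05, 5 were counted at week 19, beside 28.2% of all tested probes, and 2 at week 15, beside 11.6%. At week 15, 2 of the 8 (Krtap6-1 and Prr9) had groups that did not overlap, against 12.3% of all tested probes, but their lowest values were below background and have no order.

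These changes rested on the 3 bright arrays. Without week 10 replicates 1, 2 and 4 together, the changes at week 22 ran from -0.37 to 1.20 (median 0.39), at week 19 from -0.30 to 1.58 and at week 15 from -0.65 to 1.51, and none passed. The 3 arrays were all of scan day 1. Within scan day 1 the median change at week 22 was -4.72, and within scan day 2, whose only week 10 array is replicate 5, it was 0.42. In the fit that took scan day as a block the median was -2.75. Scan day 1 also held week 10 replicate 3, week 15 replicate 1, week 19 replicate 1 and week 22 replicate 1, on which between 0 and 2 of the 8 genes were above background. The codes that end the sample titles fall in 4 runs, called array series here. The titles do not say what the codes number. The bright arrays came from 2 of these runs, replicates 1 and 2 from series 4 and replicate 4 from series 3. Within series 3 and 4 the median change at week 22 was -2.15 and -5.05. Leaving out either of the low week 10 arrays, replicate 3 or 5, changed whether some of the genes passed at weeks 22 and 19. At week 15 none passed without either of them. Without replicate 3, 6 genes passed at week 22 (all but Krt27 and Krtap9-3), beside 10.3% of all tested probes, and 4 at week 19 (Krtap4-2, Krtap4-7, Krtap6-1 and Prr9), beside 10.4%. Without replicate 5, 6 passed at week 22 (all but Krtap4-2 and Krtap9-3), beside 8.39%, and 2 at week 19 (Krtap4-7 and Prr9), beside 8.91%. The genes were chosen on these same arrays, so these counts describe them and test nothing.

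**Figure D3:**
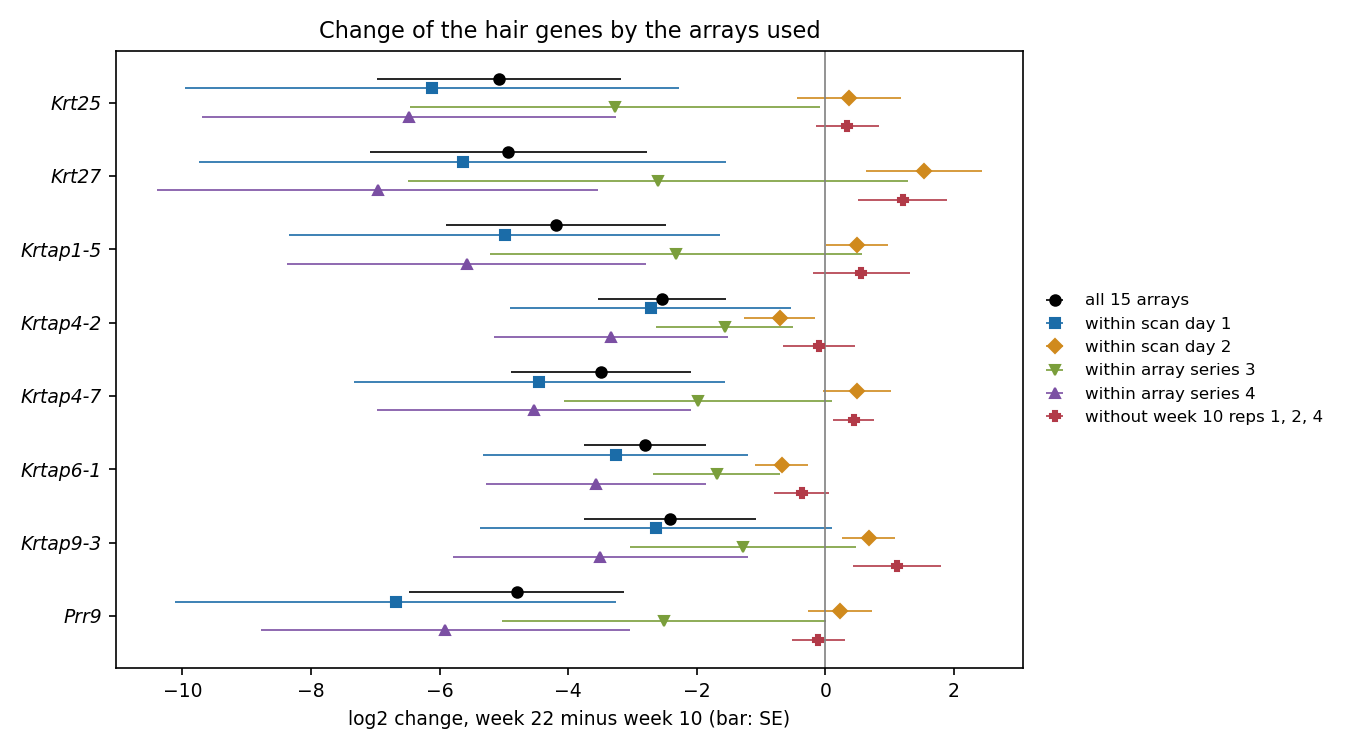
Log2 change of each hair gene at week 22 minus week 10 (horizontal axis; bars are SE) by the arrays used in the fit. The changes lie below 0 with all 15 arrays, within scan day 1 and within both array series, between -0.71 and 1.53 within scan day 2 and between -0.37 and 1.20 without week 10 replicates 1, 2 and 4.

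Many probes without a gene name had the same profile. Likeness was measured as the Pearson correlation over the 15 arrays with the mean of the 8 hair genes, which separates mainly the 3 bright arrays from the other 12. Of the 20859 other probes tested, 64 (0.307%) reached 0.9 and none reached -0.9. All 64 were above background on each of the 3 bright arrays, 23 of them on no other array and 12 on all 15 arrays. The 23 thus entered the tested probes through week 10 alone. Replicate 1 exceeded replicate 2 in 63 of the 64 and replicate 2 exceeded replicate 4 in 64. The median gap was 1.33 between replicates 1 and 2 and 2.93 between replicates 1 and 4. As the 64 were chosen for their likeness to the hair gene mean, their levels and order on the bright arrays largely follow from the choice. The median level over the 64 was 15.78, 14.41 and 12.90 on week 10 replicates 1, 2 and 4, 9.01 and 8.65 on replicates 3 and 5, and between 8.60 and 9.05 on the 10 later arrays. Computed without the 3 bright arrays, a choice made after seeing the data, no probe reached 0.9. On the other 12 arrays the hair gene mean rested mostly on values below background, so that result says nothing about the 64. Of 1257 probes above background on exactly 3 of the 15 arrays, 35 had the 3 bright arrays, among them Krtap4-2, Krtap4-7 and Krtap6-1. The next most frequent set of 3 arrays had 9.

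**Figure D4:**
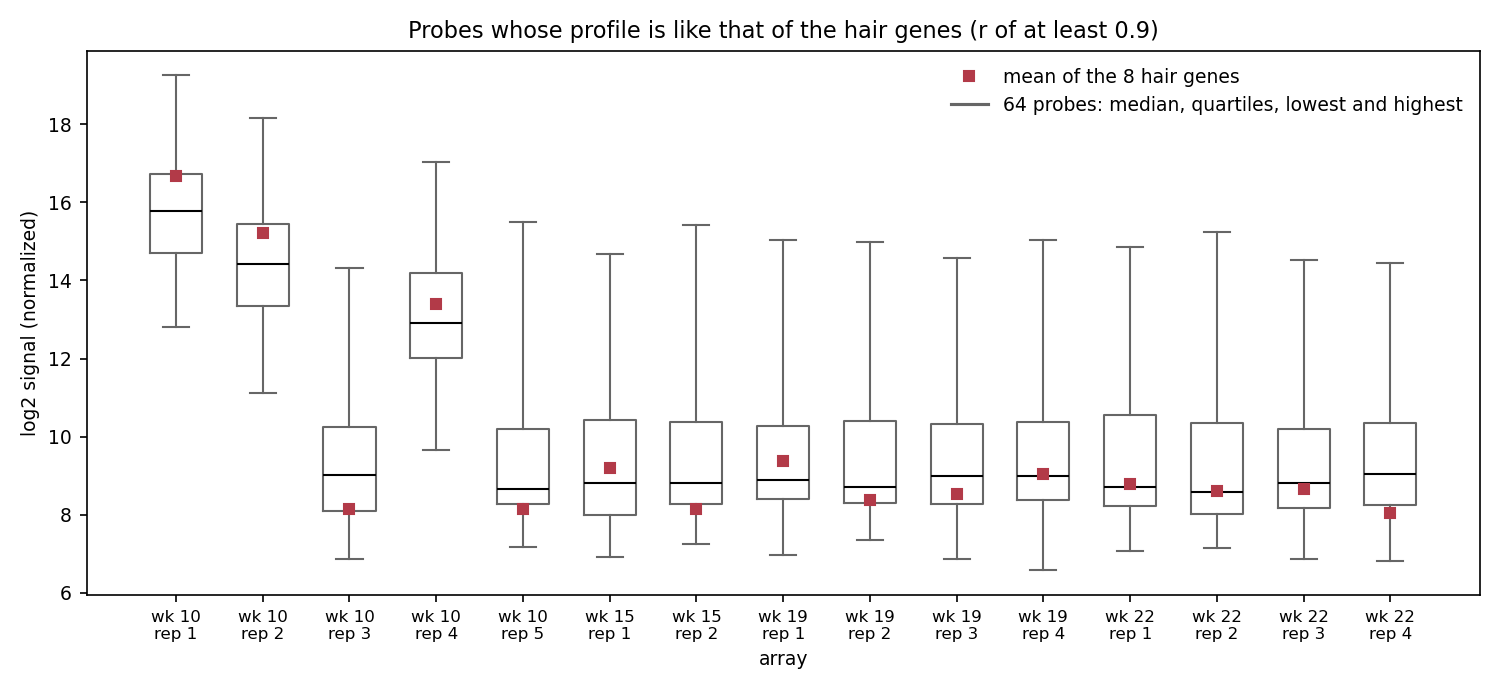
Normalized log2 signal (vertical axis) on each array for the 64 probes with a correlation of at least 0.9 with the hair genes; boxes give the quartiles and median, whiskers the lowest and highest probe, and squares the mean of the 8 hair genes. Median and mean stand above 12 on week 10 replicates 1, 2 and 4 and below 10 on the other 12 arrays.

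The probe with the highest correlation, mCG17589.2 (0.994), has no gene name here, like 62 others of the 64. It was above background on all 15 arrays, with 19.25, 18.15, 11.47, 15.59 and 11.24 on week 10 replicates 1 to 5. The next, AK004025.1 (0.989), was above background on the 3 bright arrays only. The single named probe of the 64 was Krtap3-3, a further keratin-associated protein, at a correlation of 0.911. The named genes that came after it were far less alike, Speer4d at 0.711, Wfdc2 at 0.672, and Dpp9 and Mup1 at 0.55 each. Wfdc2, a secreted protein of ducts and glands, had 15.03, 15.10, 11.83, 15.03 and 14.23 on week 10 replicates 1 to 5. Replicate 5 thus lay far nearer to the bright arrays than in any of the 8 hair genes.

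Other hair genes that could be named were few, since most probes carry no gene name. Of 13 inner root sheath genes listed, 2 could be named, both of them members, and of 16 hair cortex and cuticle keratins none could. Of 56 keratin-associated proteins 2 more could be named. Krtap3-3 was above background on all 15 arrays, with 16.46, 15.44, 14.06, 14.32 and 13.63 on week 10 replicates 1 to 5 and 13.41 as its lowest value of all, so it had a level on every array, and replicate 4 hardly exceeded the highest later array (14.31, week 15 replicate 1). Krtap3-2 was above background on week 10 replicate 1 alone (9.96). Among listed genes that regulate hair, Lhx2, a transcription factor of follicle stem cells, had 11.10 on week 10 replicate 1 and was below background on the other week 10 arrays, though above it on both week 15 arrays (8.89 and 8.78) and on week 19 replicate 4 (9.50). Edar, a receptor needed to form follicles, was above background on 13 of 15 arrays and had values between 9.57 and 11.49. The exceptions were the bright week 10 replicates 2 (9.57) and 4 (10.74), both below background. On week 10 replicates 1, 3 and 5 it had 11.07, 9.93 and 11.32. None of these genes passed in any comparison with week 10 (limma, Krtap3-2 being too dim to be tested).

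For skin outside the follicle, Lgals7, a galectin of stratified epithelium, was the single gene that could be named of 65 listed for epidermis. Which cells of the mount gave its signal was not measured, so it is no measure of skin content. Lgals7 had 14.06, 13.97, 13.58, 14.19 and 13.99 on week 10 replicates 1 to 5 and stayed between 13.58 and 14.46 on all 15 arrays. On week 10 replicates 1, 2 and 4 it lay within the range of the later arrays (13.94 to 14.46). No gene listed for sebaceous gland, melanocytes, skeletal muscle or dermis could be named, and these tissues were not analysed here.

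Some listed genes of the gland itself differed among the week 10 arrays. Krt23, a keratin of simple epithelia, had 15.31, 14.60, 12.43, 14.85 and 14.21 on replicates 1 to 5, and the casein Csn1s2a had 12.63, 12.26, 9.92, 11.79 and 8.76, the last below background. Aoc3, which encodes an amine oxidase of adipocytes and blood vessels, had 19.30, 19.49, 20.45, 19.54 and 20.13. In these 3 genes replicates 1, 2 and 4 were the higher ones in Krt23 and Csn1s2a and the lower ones in Aoc3. The other epithelial genes were mostly below background at week 10. Csn1s2b was above it on replicate 5 alone (10.35), Csn2 on replicate 1 alone (10.97) and Wap on replicate 2 alone (10.27). By value, Csn2 and Wap were also higher on replicates 1, 2 and 4 than on replicates 3 and 5. Csn2 had 10.97, 10.74, 9.85, 9.89 and 9.70 on replicates 1 to 5, and Wap had 9.33, 10.27, 8.70, 9.31 and 8.53. Csn1s2b went the other way, with its highest value on replicate 5. Most of these values were below background and have no order. Any part of these differences in the hair signal was not tested. Most hair genes were below background on the arrays of weeks 19 and 22. Krtap9-3 was above it on 4 of 4 arrays at week 19 and 3 of 4 at week 22, and Krt25 on 3 of 4 at week 19. On the arrays of these 2 ages Krt23 lay between 15.16 and 16.07, Csn1s2a between 13.88 and 18.03 and Aoc3 between 17.12 and 19.14. In the epithelial list 5 of 20 genes could be named. Of these, 4 of 5, milk protein genes all, rose at week 22 and 2 of 5 at week 19 (limma). Of all tested probes, 12% passed at week 22 and 12.5% at week 19, in either direction. The gene lists were chosen with earlier results of these data known, so these counts describe them and test nothing. The exception at week 22 was Krt23 (1.33 ± 0.45, limma adjusted p = 0.0708). The log2 changes at week 22 were 5.78 ± 0.92 for Csn1s2a, 5.38 ± 0.84 for Csn2, 3.55 ± 0.86 for Csn1s2b and 1.66 ± 0.43 for the whey protein Wap (adjusted p of 0.00154 to 0.0243), and Csn1s2a and Csn2 were those that rose at week 19. Aoc3, the single fat gene, fell at both ages, by 1.46 ± 0.42 at week 22 (adjusted p = 0.0377) and by 1.54 ± 0.42 at week 19 (adjusted p = 0.0288).

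**Figure D5:**
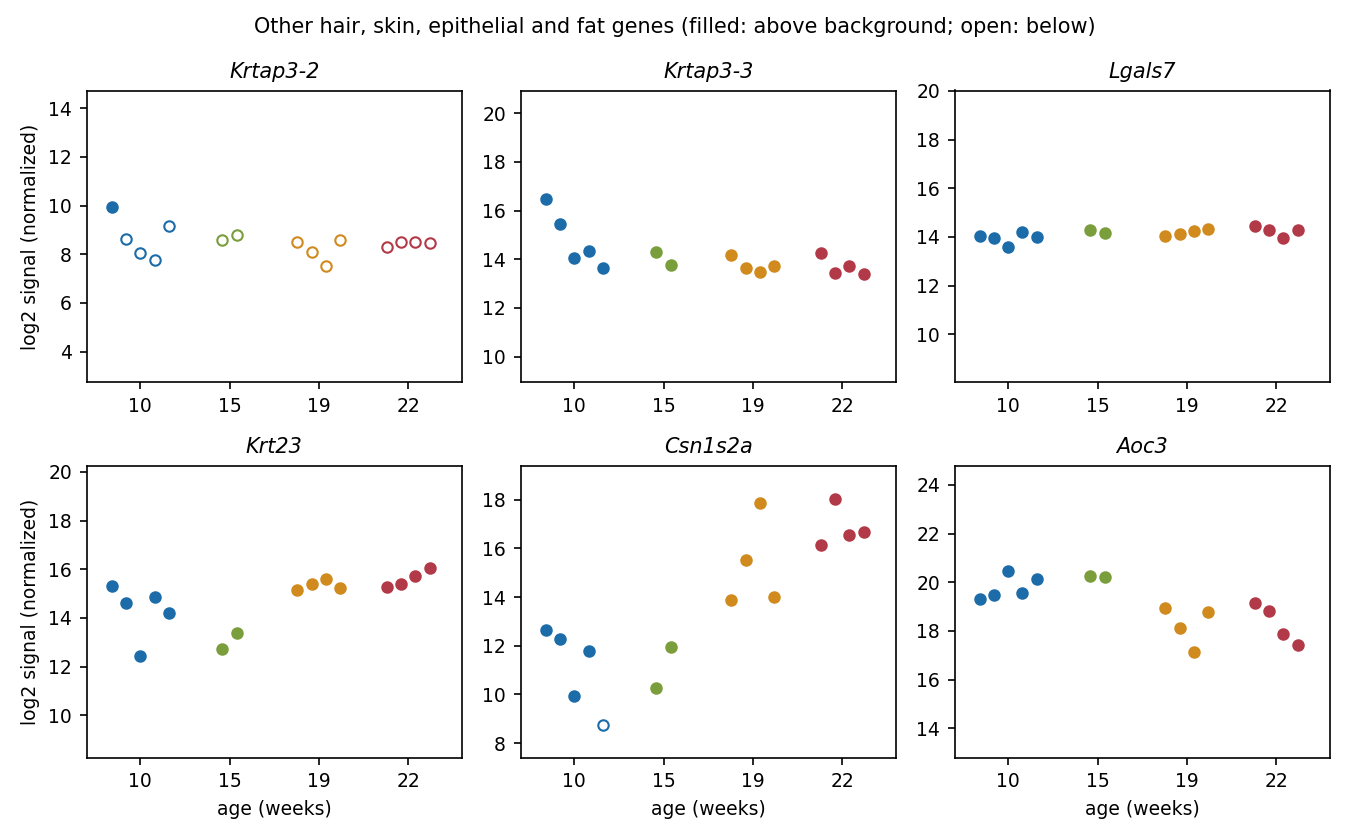
Normalized log2 signal (vertical axis, 12 log2 units in each panel) of 6 listed genes on the 15 arrays by age in weeks; each point is 1 array in replicate order within an age, filled where above background. Krtap3-3 is highest on week 10 replicates 1 and 2, Lgals7 lies between 13.58 and 14.46 throughout, and Krt23, Csn1s2a and Aoc3 differ among the week 10 arrays and between ages.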

How the data were processed

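Total RNA was labelled with digoxigenin, hybridised to AB1700 arrays and read by chemiluminescence, per the labels' protocols. Per the file headers, the deposited files list for each probe the signal intensity (linear), the SD of the signal, the score of signal over noise, and flags. The background step that preceded deposit is not stated in the labels. Where the score was under 1 the deposited intensity equals its SD, so such values mark a floor. The authors' value table holds deposited log2 values, quantile normalized, with an unknown offset, and served as an alternative.

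Signals of 33012 probes, without 303 control spots, were taken to log2 and quantile normalized. Above background meant a score of at least 3 and a flag under 5000, and the 20867 probes that were above it in at least 50.0% of any age's arrays entered 1 limma fit (version 3.58.1, R 4.3.3) with age as 4 levels, read at a Benjamini-Hochberg adjusted p of 0.05. The fit was tested on simulated data. Week 15 is assumed to vary like the other ages. The file of week 10 replicate 4 lists no gene identifiers, so its probes were named by probe number. RefSeq accessions named 317 probes of 311 genes and promoter windows came from RefSeq (GRCm38.p6). Replicate numbers follow the order of deposit. The genes, gene lists and left-out arrays were chosen with earlier results of these data known. Named are the 8 genes, every listed gene with a probe name, the 5 named genes and up to 2 unnamed probes most like them. Alternatives changed scaling, filter, floor, blocks, detection and the arrays used.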

Additional observations from a re-analysis of the deposited data

Results flagged for a closer look

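In 57 groups of 4 or 5 arrays, over the 8 hair genes and 11 listed genes, 1 array lay farther from its group than Dixon's test allows at the 95% level, where chance gives about 1 in 20 groups. It was Krtap6-1 on week 22 replicate 3, at 7.76 against 8.14 to 8.19 on the other 3 arrays, with all 4 below background. The bright week 10 arrays are not singled out by that test, which looks for a single distant array.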

How the results depend on the processing

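No paired analysis was possible because the labels give no replicate numbers shared between ages. Under all alternatives run, scaling, filter, floor, blocks and the authors' table left 0 of the 8 hair genes passing at each age, and only leaving out single arrays changed this, giving 0 to 6 genes at week 22 (6 without week 10 replicate 3 or 5, where 10.3% and 8.39% of all probes passed) and 0 to 4 at week 19 (4 without replicate 3 and 2 without replicate 5, where 10.4% and 8.91% passed). With the floor, the changes at week 22 ran from -4.43 to -1.51, against -5.08 to -2.42. Of the alternative values of their log2 changes, 16 of 160 at week 22, 17 of 160 at week 19 and 16 of 136 at week 15 moved by over 1 SD of the gene. Counts of hair genes above background were 43 at 2 times the noise and 31 at 5 times, against 38 of 120, and week 10 replicates 1, 2 and 4 kept 8 of 8 at both.

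Over all probes, the 2495 that passed at week 22 against week 10 became 4 within scan day 1, 682 within scan day 2, 0 within array series 3 and 450 within series 4, and 1211 (without week 22 replicate 4) to 2475 when 1 array was left out, with 1519 without week 22 replicate 3. The 2612 at week 19 became 1683 when scan day was a block, 51 within scan day 1, 566 within day 2, 196 within series 3, 103 within series 4, and 1415 (without week 19 replicate 3) to 2752, with 1652 without week 19 replicate 2. The 7 at week 15 became 3 with a floor below background, 1 when array series was a block, 327 within scan day 1, 0 within day 2, 0 within series 4 and 0 without week 10 replicates 1, 2 and 4 together, and 3 (without week 10 replicate 1) to 943 (without week 15 replicate 2). Counts within a day or series come from fewer arrays. Centring arrays on their medians in place of quantile normalization moved the median of all probes at week 22 to 0.14, with 2674 higher and 500 lower against 1623 and 872, and left the hair genes between -5.03 and -2.31.

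The 64 probes alike became 110 at a correlation of 0.8, 42 (without week 10 replicate 1) to 69 when 1 week 10 array was left out, and 0 without week 10 replicates 1, 2 and 4 together, a setting chosen after seeing the data. In that last setting the hair gene mean rested mostly on values below background, so its count says nothing about the 64. All 64 were shared when the authors' values were used, and 58 under median centring. Below background, order among values is not measured, and the 2 arrays at week 15 limit that age most.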
